A study of Bos taurus with 15 samples.

Results

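MEG3 and MEG8 are a pair of long non-coding RNA genes that stand next to each other in an imprinted region of the genome. They were followed here through bovine morulae that held a sperm genome, an oocyte genome or both. They are 2 of the 31999 rows of the deposited count table and were taken by name. The libraries came from morulae, the stage at which the cleaving embryo compacts before it forms a blastocyst. Of the 15 libraries, 5 were haploid androgenetic embryos, whose chromosomes come from sperm, and 5 were haploid parthenogenetic embryos, whose chromosomes come from the oocyte. The other 5 were diploid and came from intracytoplasmic sperm injection (ICSI), in which a sperm is placed into the oocyte and both parental genomes are present. Library titles begin with TII, CHX and ICSI in these groups. The labels gave no breed, bull, donor, treatment, day or batch, and did not say whether a library was made from 1 embryo or a pool. Each group was made by its own procedure, which cannot be told apart from parental genome and ploidy. No label stated that replicates were separate embryos or came from separate animals. A p-value here therefore reflects the variation from library to library, which may be technical.

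Imprinted genes are transcribed mainly from the copy inherited from 1 parent. In the DLK1-DIO3 domain of mammals the long non-coding RNAs MEG3 (called Gtl2 in the mouse), MEG8 (Rian in the mouse) and MEG9 are known as maternally expressed, and the protein genes DLK1, RTL1 and DIO3 as paternally expressed. A region between DLK1 and MEG3 that carries DNA methylation on the paternal copy controls both sets. MEG8 is known as a host of small nucleolar RNAs, and many microRNAs are cut from transcripts of the same strand. In the RefSeq annotation of the cattle assembly ARS-UCD2.0, MEG3 follows DLK1 and MEG8 follows RTL1 on chromosome 21. The annotated MEG8 encloses 33 small nucleolar RNA genes and 3 microRNA genes, and it overlaps RTL1. The strand setting of the counting was not given in the sources used here, so counts on MEG8 cannot be told apart from those on genes that overlap it.

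Total counts ranged from 19968077 to 28981601 per library. Rows with at least 1 count numbered 13564 to 19950 per library. The rank correlation of androgenetic replicate 4 with ICSI replicate 4 was 0.846, and with its own group's libraries it reached 0.792. Parthenogenetic replicates 2, 3, 5 and 6 were also closer to an ICSI library than to their own group, by smaller margins (for replicate 2, 0.886 against 0.872). SNURF, which is known as paternally expressed, stood between 0.0444 and 1.54 CPM in the parthenogenetic libraries, between 160.4 and 315 CPM in the androgenetic and between 79.0 and 201 CPM in the ICSI libraries. CPM (the usual unit of counts relative to a library's total) were scaled between libraries by edgeR's TMM factors. Of the markers listed for the inner cell mass, trophectoderm, cumulus cells and sperm, only SOX2 had a row of its name. It was above 0 in all 15 libraries, and no other check of cell type could be made by name.

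MEG3 was present in some parthenogenetic morulae and had no count in any ICSI morula. Parthenogenetic replicates 1, 3 and 5 had 161, 92 and 105 raw counts of MEG3, and replicates 2 and 6 had 0. The 5 ICSI libraries had 0 counts each. Among the androgenetic libraries, replicate 2 had 19 counts, replicate 4 had 1, and replicates 1, 5 and 6 had 0. The parthenogenetic libraries thus fell into 3 with MEG3 and 2 without, and those 2 overlapped both other groups. In a bulk library, fewer cells with the RNA and less RNA per cell cannot be told apart.

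**Figure D1:**
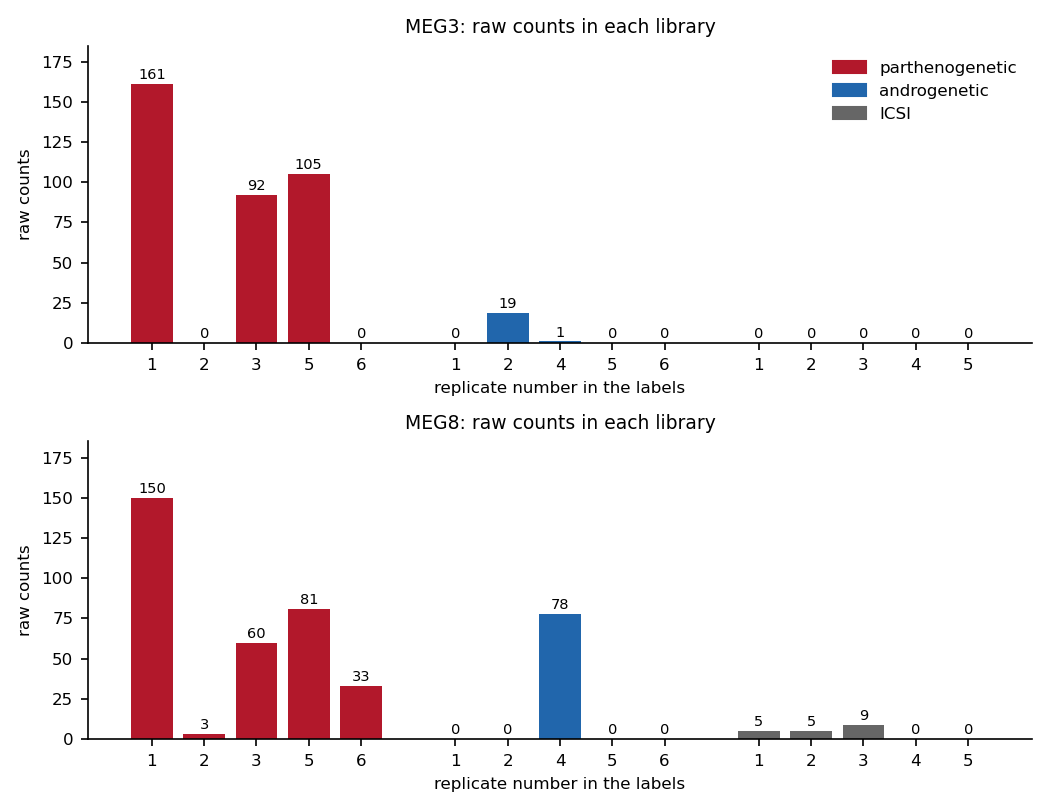
Raw counts of MEG3 (top) and MEG8 (bottom) in each of the 15 libraries, with the library's replicate number on the horizontal axis and the count above each bar; colours mark the groups. MEG3 is at 0 in all ICSI libraries and in parthenogenetic replicates 2 and 6, and the 78 MEG8 counts of the androgenetic group are all in replicate 4.

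Scaled for depth, MEG3 stood at 5.72, 2.98 and 3.28 CPM in parthenogenetic replicates 1, 3 and 5. Counting error alone left an interval of 4.87 to 6.67 CPM (exact Poisson, 95%) for the first of these and 2.40 to 3.66 for the second, so the level in replicate 1 lay above that in replicate 3. Reads from amplified libraries are not independent molecules, so such intervals and the limits for a count of 0 cover counting error only. A count of 0 allowed up to 3 counts, which is 0.116 CPM in parthenogenetic replicate 2 and 0.133 CPM in replicate 6. Both limits are far below the levels of the other 3 libraries of the group. In ICSI the limits lay between 0.0896 and 0.140 CPM per library, and at 0.0213 CPM over the group.

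The order of the MEG3 means was parthenogenetic, androgenetic, ICSI. They were 2.40 ± 2.43 CPM (SD, n = 5), 0.241 ± 0.519 CPM and 0 CPM. The parthenogenetic mean was 112-fold the limit for the ICSI group. This fold leaves out the spread among the parthenogenetic libraries, so it is no lower bound for the difference between groups. Of the androgenetic counts 95% came from replicate 2, and without that library the androgenetic mean was 0.00939 CPM, below the group limit for a count of 0. No difference between groups passed its test. Differences of mean CPM were put to an exact permutation test, two-sided, in which parthenogenetic minus ICSI was 2.40 CPM with p = 0.167 (0.250 adjusted over the 3 contrasts). Androgenetic minus parthenogenetic was -2.15 CPM (exact p = 0.167, adjusted 0.250) and androgenetic minus ICSI 0.241 CPM (exact p = 0.444, adjusted 0.444). The smallest p that 5 against 5 libraries can give is 0.00794, but only without many tied values. All ICSI libraries were tied at 0, so every MEG3 count in the contrasts with ICSI lay in the haploid group. The p of 0.167 for parthenogenetic and 0.444 for androgenetic minus ICSI were therefore the smallest those zeros allowed. These tests against ICSI could not have passed, so they do not decide whether the groups differ.

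MEG3 had enough counts for edgeR's expression filter in 4 libraries where 5 were needed, so it was tested across all rows only in a fit without a filter. In that fit of 25261 rows no contrast called it. For parthenogenetic minus ICSI the log2 fold change was 8.90 ± 2.55 (SE; edgeR adjusted p = 0.769), where 0.0554% of all rows were called and 0 of those were higher. For androgenetic minus ICSI it was 5.69 ± 2.22 (edgeR adjusted p = 0.177; 1.22% of rows called, 0.914% higher and 0.305% lower), and 1.73 without androgenetic replicate 2. For androgenetic minus parthenogenetic it was -3.22 ± 1.99 (edgeR adjusted p = 0.375; 0.788% of rows called, 0.542% higher and 0.245% lower), and -7.22 without that library. Fitted changes against a group at 0 depend on the small count that edgeR adds, and are no bounds.

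MEG8 had counts in 9 of the 15 libraries, where MEG3 had them in 5. Its raw counts in parthenogenetic replicates 1, 2, 3, 5 and 6 were 150, 3, 60, 81 and 33. ICSI replicates 1, 2 and 3 had 5, 5 and 9 counts and replicates 4 and 5 had 0. In the androgenetic group replicate 4 had 78 counts and the other 4 libraries had 0. Of the 5 parthenogenetic libraries, 4 lay above every ICSI library, and replicate 2 lay among the ICSI libraries. Androgenetic replicate 4 lay within the parthenogenetic range, while the rest of its group, at 0, lay below parthenogenetic replicates 1, 3, 5 and 6. The limits for a count of 0 in those 4 libraries, 0.132 to 0.184 CPM, do not separate them from parthenogenetic replicate 2.

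In CPM, the parthenogenetic libraries held 5.33, 0.116, 1.94, 2.53 and 1.47 of MEG8 in the same order. The ICSI libraries with counts held 0.185, 0.188 and 0.269 CPM, and androgenetic replicate 4 held 2.93 CPM. The means were 2.28 ± 1.92 CPM (SD, n = 5) in parthenogenetic, 0.586 ± 1.31 in androgenetic and 0.128 ± 0.122 in ICSI morulae. The order of the lower groups depended on the summary: by medians it was parthenogenetic (1.94 CPM), ICSI (0.185 CPM) and androgenetic (0 CPM). The parthenogenetic mean was 17.7-fold the ICSI mean.

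MEG8 passed the expression filter with the 5 libraries needed, androgenetic replicate 4 among them, and was tested with 16375 rows. edgeR's quasi-likelihood test called it in no contrast. For parthenogenetic minus ICSI the log2 fold change was 4.09 ± 1.86 (SE; edgeR adjusted p = 0.99999), against a median of 0.02 over all rows tested. Before adjustment the p was under 0.05. In this contrast 0.0733% of rows were called, and 0 of them were higher. A larger log2 fold change than that of MEG8 was found for 0.153% of these rows, and for 1.82% of the 25261 rows in the fit without a filter. For androgenetic minus ICSI it was 2.15 ± 1.72 (edgeR adjusted p = 0.525; 2.82% of rows called, 1.76% higher and 1.06% lower). For androgenetic minus parthenogenetic it was -1.93 ± 1.69 (edgeR adjusted p = 0.590; 1.75% of rows called, 0.916% higher and 0.837% lower). DESeq2 and limma voom called MEG8 in none of the 3 contrasts either. By exact permutation of CPM, parthenogenetic minus ICSI was 2.15 CPM (p = 0.0317, adjusted over the 3 contrasts 0.0952). Leaving out single libraries of either group moved this difference between 1.38 CPM, without parthenogenetic replicate 1, and 2.69 CPM, without parthenogenetic replicate 2. The adjusted p of the exact test was 0.0238 without parthenogenetic replicate 2, 0.143 without ICSI replicate 4, 0.119 without ICSI replicate 5 and 0.0952 without any one of the others.

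The sign of MEG8 in androgenetic against ICSI morulae depended on the method and, in the main fit, on 1 library. With all 15 libraries it was negative in limma voom (-0.29) and in edgeR with a replicate block (-2.48). Without androgenetic replicate 4 the log2 fold change was -4.77 ± 1.87 (edgeR adjusted p = 0.134) in place of 2.15. In androgenetic minus parthenogenetic it was then -8.85 ± 2.14 and was called (edgeR adjusted p = 0.0353). Leaving this library out also raised the share of all rows called in that contrast, from 1.75% to 4.37%. Exact permutation gave -2.27 CPM (p = 0.0159, adjusted 0.0476) for androgenetic minus parthenogenetic. The library left out held all MEG8 counts of its group, so singling it out used the values under test. Without it, only parthenogenetic libraries brought MEG8 past the filter. These p-values are therefore descriptions. With the 4 remaining androgenetic libraries all at 0, the parthenogenetic mean was 56.5-fold the limit of 3 counts over those libraries. This fold rests on the same choice of library, leaves out the spread among parthenogenetic libraries and is a description too. The means were 2.28 CPM in parthenogenetic and 0.586 CPM in androgenetic morulae with androgenetic replicate 4 kept. Parthenogenetic minus ICSI was 4.09 with or without this library. The library is in neither group of that contrast, so the equal values do not show robustness. MEG8 had a biological coefficient of variation of 1.82 in the edgeR fit, above that of 94.3% of rows and above the median row's 0.945. Without androgenetic replicate 4 it was 1.30, above that of 73.3% of rows.

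**Figure D2:**
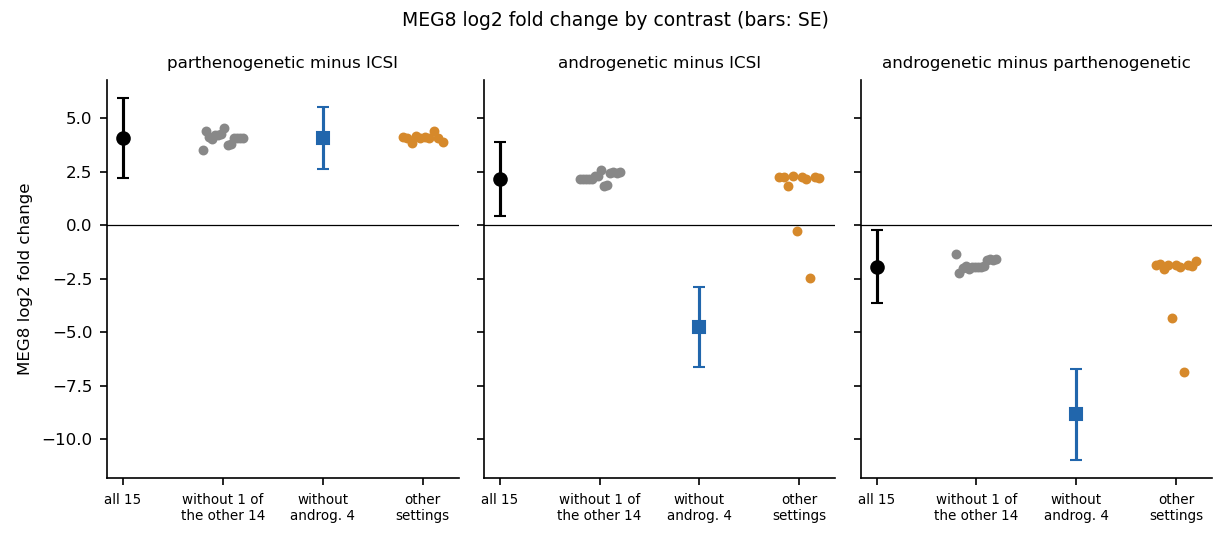
MEG8 log2 fold change in each contrast from edgeR with all 15 libraries (black, with SE), without each of 14 libraries in turn (grey), without androgenetic replicate 4 (blue, with SE) and under the other settings (orange, edgeR, DESeq2 and limma voom). Values for parthenogenetic minus ICSI stay between 3.50 and 4.53 when single libraries are left out, whereas androgenetic minus ICSI goes from 2.15 to -4.77 without androgenetic replicate 4.

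Androgenetic replicate 4 was followed further because it carried all MEG8 counts of its group. It had the most rows detected in the group, 18633 against 13564 to 17468 in the others. It held 131 rows with at least 50 counts that were at 0 in the other 4 androgenetic libraries, where the others held 55 to 106 such rows each. Its SNURF level of 223 CPM lay within the range of the others, 160.4 to 315 CPM. The part of these library differences in the MEG8 counts was not tested. Its MEG3 count was 1, so MEG8 was present there nearly without MEG3.

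The 3 libraries with many counts of both RNAs had similar proportions of them. MEG3 made up 51.8% of the 311 MEG3 and MEG8 counts in parthenogenetic replicate 1 (exact Clopper-Pearson interval 46.1 to 57.4%). It made up 60.5% of 152 counts in replicate 3 (52.3 to 68.4%) and 56.5% of 186 counts in replicate 5 (49.0 to 63.7%), and these 3 intervals overlap. The shares are of raw counts, which do not allow for the different lengths of the RNAs, so they compare libraries and not the genes.

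The raw counts of other libraries departed from that proportion in both directions. Reads from amplified libraries are not independent molecules, so the intervals and bounds of these shares cover counting error only and may be too narrow. In parthenogenetic replicate 6, 0 of 33 counts were MEG3, with an exact upper bound of 10.6% (9.09% by the limit of 3 counts). In androgenetic replicate 4, 1 of 79 counts was MEG3, a share of 1.27% (0.0320 to 6.85%). In androgenetic replicate 2 all 19 counts were MEG3, with a lower bound of 82.4%. The 3 ICSI libraries with MEG8 had 5, 5 and 9 counts in all, and none of MEG3. The exact upper bound was 52.2% for 0 of 5 counts, which lies within the intervals of parthenogenetic replicates 1 and 5 and just under that of replicate 3. For the 0 of 9 counts of ICSI replicate 3 it was 33.6%. Over all 15 libraries, 4 had counts of both RNAs, 1 of MEG3 alone, 5 of MEG8 alone and 5 of neither.

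**Figure D3:**
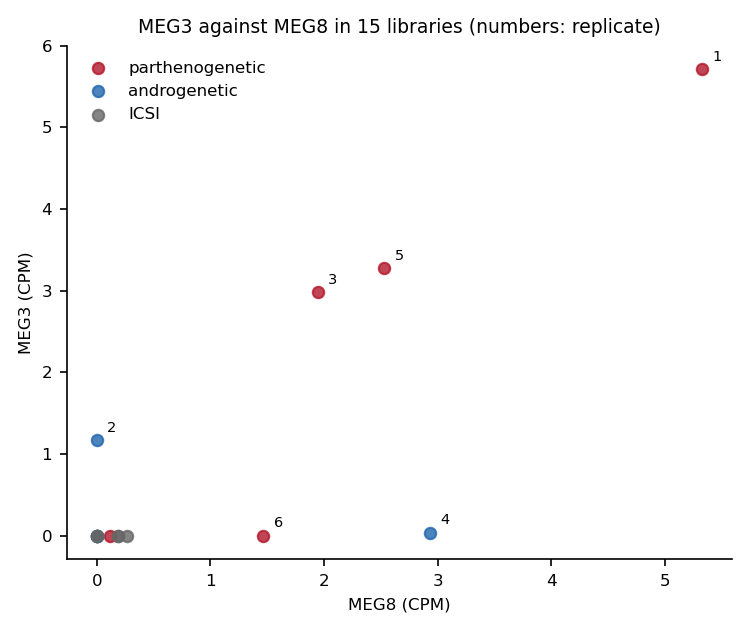
MEG3 against MEG8 in CPM, 1 point per library, with replicate numbers beside points above 0.5 CPM. Parthenogenetic replicates 1, 3 and 5 have both RNAs, parthenogenetic replicate 6 and androgenetic replicate 4 have MEG8 with MEG3 at or near 0, and androgenetic replicate 2 has MEG3 with MEG8 at 0.

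The pattern of MEG3 was uncommon in the table. Of 11135 rows with at least 50 counts in at least 3 parthenogenetic libraries, 2 had 0 counts in all 5 ICSI libraries, and MEG3 was one of them. The other, ENSBTAG00000009354, had 85, 54, 54, 42 and 0 counts in parthenogenetic replicates 1, 2, 3, 5 and 6 and 0 in every androgenetic library. These limits were set after the MEG3 counts were seen, so the count is a description. Among the 4152 rows whose parthenogenetic mean was within 2-fold of that of MEG3, 0.241% were at 0 in all ICSI libraries and 6.19% were at 0 in at least 2 parthenogenetic libraries. The 3 parthenogenetic libraries with MEG3 had 18478 to 18899 rows detected, and the 2 without it had 16154 and 18111. The part of this difference in the MEG3 counts was not tested.

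Little else of the domain could be read by name. Of the 114 RefSeq genes from BEGAIN to DIO3, among them 60 microRNA genes, 3 had a row of their name in the table: MEG3, MEG8 and LOC112443172. The last is an unnamed long non-coding RNA gene that lies between MEG9 and DIO3. It had 230 counts in androgenetic replicate 6 and at most 27 in any other library. The other androgenetic libraries had 1, 8, 5 and 5 counts in replicates 1, 2, 4 and 5. Parthenogenetic replicate 2 had 27 and the rest of its group 0 to 4, while ICSI replicates 1 and 2 had 27 and 22 and the other 3 had 0. The libraries with the highest values of LOC112443172 were thus not those with MEG3. In the fit without a filter it was called in no contrast (edgeR log2 fold change 2.96 ± 1.84 for androgenetic minus ICSI, adjusted p = 0.369).

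Of the 16 listed genes of the domain and its flanks, 3 had a row, and 2 passed the filter: MEG8 and WARS, the tryptophanyl-tRNA synthetase gene on the flank beyond BEGAIN. Neither was called in any contrast by edgeR, DESeq2 or limma voom, and in each contrast 1 of the 2 had an unadjusted edgeR p under 0.05. Over all rows tested the share under 0.05 was 19.7% in androgenetic minus ICSI, 1.86% in parthenogenetic minus ICSI and 18.7% in androgenetic minus parthenogenetic. WARS stood at 60.2 ± 10.9 CPM (n = 5) in ICSI, 59.8 ± 30.1 in parthenogenetic and 25.1 ± 17.6 in androgenetic morulae. Its log2 fold change was -1.26 ± 0.58 for androgenetic minus ICSI (edgeR adjusted p = 0.235) and -0.01 ± 0.57 for parthenogenetic minus ICSI (edgeR adjusted p = 0.99999).

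Among 30 listed maternally expressed genes, MEG3 and MEG8 alone had a row of their name. The list of factors that set or keep imprints had 0 rows of 25. Of 30 genes listed here as paternally expressed 4 were tested, and which parental copy each is transcribed from was not tested. SNURF was the 1 called by edgeR, lower in parthenogenetic than in ICSI and higher in androgenetic than in parthenogenetic morulae. Of all rows tested, 0.0733% were called in the first of these contrasts and 1.75% in the second. In the second, DESeq2 called 2 of the 4, where it called 10.2% of all rows. The median log2 fold change of the 4 was 0.82 in androgenetic minus ICSI, -0.12 in parthenogenetic minus ICSI and 1.35 between the haploid groups, beside -0.01, 0.02 and -0.00 over all rows tested. MKRN3, a ubiquitin ligase gene of that list, averaged 4.61 ± 5.87 CPM over the androgenetic libraries, 2.48 ± 1.21 over the parthenogenetic and 1.48 ± 1.11 over the ICSI libraries. USP29, a deubiquitinase gene of the same list, had 1.70 ± 1.83, 1.78 ± 1.46 and 1.001 ± 0.661 CPM in the same order. Both had counts in all 5 parthenogenetic libraries, and edgeR called neither in any contrast. ZIM3, a zinc finger gene, averaged 59.8 ± 41.1, 17.1 ± 10.6 and 33.7 ± 34.0 CPM, again in that order. Its log2 fold change for androgenetic minus parthenogenetic was 1.81 ± 0.60 and was not called (edgeR adjusted p = 0.111).

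XIST, the long non-coding RNA that coats the inactive X chromosome, was the only other member of the long non-coding RNA list with a row. It ranged from 26.3 to 90.6 CPM in parthenogenetic libraries, with a median of 45.9. In androgenetic libraries it ranged from 5.35 to 22.7 CPM (median 13.9) and in ICSI libraries from 1.15 to 42.3 (median 21.4). Every parthenogenetic library was above every androgenetic one, and the range of ICSI overlapped both. The lowest ICSI value was that of replicate 1, and the other ICSI libraries held 20.4 to 42.3 CPM. Which sex chromosomes each library carried, and their part in the XIST levels, was not tested. The log2 fold change of androgenetic minus parthenogenetic was -1.89 ± 0.68 and was not called (edgeR adjusted p = 0.142), where 1.75% of rows were. Unlike MEG3, XIST was high in parthenogenetic replicate 6, at 90.6 CPM.

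The row with a symbol whose pattern was most like that of MEG3, and also of MEG8, was VGLL1, a gene for a cofactor of TEAD transcription factors. Likeness was measured as Pearson's correlation of log2(CPM + 1) over the 15 libraries, among rows that passed the filter. It was 0.845 for MEG3 and 0.769 for MEG8. VGLL1 had 684, 0, 328, 272 and 13 counts in parthenogenetic replicates 1, 2, 3, 5 and 6, so the same 3 libraries were high. It had 1 to 109 counts in ICSI and 0 to 50 in androgenetic libraries, where MEG3 had at most 19. Without parthenogenetic replicate 1 the correlations were 0.740 and 0.630, and over the 10 androgenetic and ICSI libraries alone they were -0.09 and 0.34. The likeness was weaker outside the parthenogenetic libraries. The row matched to VGLL1 and ENSBTAG00000001880 had nearly equal counts and are uncertain as separate genes.

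MEG8 was the second symbol row in likeness to MEG3, at 0.722 (0.852 without androgenetic replicate 4, and -0.12 over the androgenetic and ICSI libraries). The third was TRPM1, a cation channel gene, at 0.683, which was highest in androgenetic replicate 2 at 2.83 CPM. For MEG8 the next were CEACAM20, a cell adhesion molecule gene, at 0.707 and IFT172, a gene for intraflagellar transport, at 0.698. Both peaked in androgenetic replicate 4, with 121 counts each. Rows without a symbol came closer: the highest were ENSBTAG00000051913 for MEG3 (0.875) and ENSBTAG00000050410 for MEG8 (0.855). Of the 31999 rows, 777 carried a symbol, and 80 LOC rows were matched to one. Among all rows that passed the filter, VGLL1 ranked 3, MEG8 37 and TRPM1 56 in likeness to MEG3. For MEG8, VGLL1 ranked 10, CEACAM20 38 and IFT172 42. All points share their library's depth and scaling factor, and the correlations are given as descriptions.

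**Figure D4:**
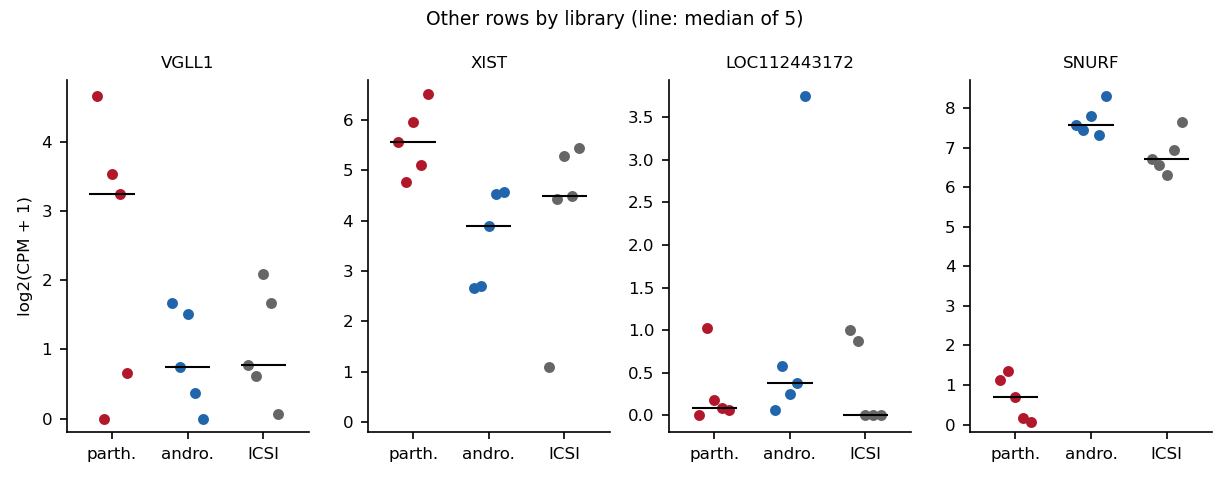
Levels of VGLL1, XIST, LOC112443172 and SNURF as log2(CPM + 1), 1 point per library, with a line at the median of each group of 5. VGLL1 is high in parthenogenetic replicates 1, 3 and 5, every parthenogenetic library has more XIST than every androgenetic one, LOC112443172 is high in androgenetic replicate 6, and SNURF is near 0 in the parthenogenetic libraries.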

How the data were processed

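The authors deposited 1 table of raw counts per gene and library for 15 libraries of polyadenylated RNA, not normalized, per the file's values. Per the labels' protocols the kits were SMART-Seq HT and Nextera XT. The submitters' processing notes name STAR, featureCounts, cutadapt and Trim Galore, in no stated order. Versions, genome build, annotation and strand setting are not given in the sources used here, so no coordinates are printed and ARS-UCD2.0 served for names and gene order only. Rows under Ensembl identifiers carry no gene name here.

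Counts were tested with edgeR 4.0.16 (R 4.3.3): filter by group, TMM factors, quasi-likelihood fit of all 15 libraries and Benjamini-Hochberg adjustment, with calls at an adjusted p under 0.05. MEG3, below the filter, was tested by exact permutation of CPM and in an edgeR fit without a filter. Alternatives were DESeq2 1.42.0, limma 3.58.1 voom, other scaling factors, filters and pseudocounts, leaving out each library, and a replicate block. MEG3, MEG8, genes of the lists and the 3 symbol rows most like MEG3 or MEG8 were named by rule. Members and lists were chosen with earlier results of these data known.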

Additional observations from a re-analysis of the deposited data

Results flagged for a closer look

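In each group of 5 libraries, the gap between the highest or lowest library and its nearest neighbour was divided by the group's range, and a library was singled out where this passed Dixon's 95% critical value. For normally distributed values chance alone does this in about 1 in 20 groups, and 29 were examined. That rate does not hold for rows with many counts of 0, so their flags are descriptions. With 4 of 5 libraries at 0, as for MEG8 in the androgenetic group, the gap equals the range whatever the count. MEG3 stood apart in androgenetic replicate 2 at 1.17 CPM, and MEG8 in androgenetic replicate 4 at 2.93 CPM, where the others of the group had 0. LOC112443172 stood apart in androgenetic replicate 6 at 12.4 CPM and in parthenogenetic replicate 2 at 1.04 CPM. ZIM3, listed as paternally expressed, stood apart in 3 groups: at 131.9 CPM in androgenetic replicate 6, 35.5 CPM in parthenogenetic replicate 2 and 94.2 CPM in ICSI replicate 5. Androgenetic replicate 6 and ICSI replicate 5 had the fewest rows detected in their groups, 13564 and 15286. Parthenogenetic replicate 2, with 18111, did not. The part of rows detected in these flags was not tested. For SNURF the differences of the haploid groups from ICSI differed from each other by 8.24 on the log2 scale (edgeR adjusted p = 2.3e-05), higher in 5 of 5 androgenetic libraries than in any parthenogenetic one.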

How the results depend on the processing

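MEG8 in androgenetic minus ICSI turned negative without androgenetic replicate 4 (-4.77), in limma voom (-0.29) and with the replicate block (-2.48), and none of these was called; the cause was not tested for the last 2. Androgenetic minus parthenogenetic was called without androgenetic replicate 4 (-8.85, edgeR adjusted p = 0.0353), where 4.37% of all rows were called. It was -4.35 in limma voom (adjusted p = 0.0814) and -6.88 with the replicate block (edgeR adjusted p = 0.201). Leaving out each library in turn, MEG8 ranged from -4.77 to 2.59, from 3.50 to 4.53 and from -8.85 to -1.36 (androgenetic against ICSI, parthenogenetic against ICSI, androgenetic against parthenogenetic). The MEG3 difference ranged from 0.00960 to 0.338, from 1.55 to 3.05 and from -2.81 to -1.32 CPM, and its log2 fold change in the fit without a filter from 1.73 to 6.05, from 8.29 to 9.24 and from -7.22 to -2.62. No alternative run changed the direction of MEG3 or brought it past the threshold. MEG8 in parthenogenetic minus ICSI kept its sign in each alternative run and was not called by edgeR, DESeq2 or limma voom. Its exact permutation test gave 2.15 CPM. In androgenetic minus parthenogenetic morulae, lists that hold MEG8 had 1 called member without androgenetic replicate 4 in place of 0. The paternally expressed list had 2 in DESeq2 in place of 1. Of all rows, 4.37% were called in the first of these runs and 10.2% in DESeq2, against 1.75% in the main fit. MEG8 was below the filter in the fits of 2 groups with ICSI; without a filter, an alternative chosen after seeing the data, these gave 4.08 for parthenogenetic minus ICSI (edgeR adjusted p = 0.638). DESeq2 size factors moved the median of all rows from -0.01 to 0.13 and from -0.00 to 0.12 in the contrasts with androgenetic libraries, library totals alone to -0.54 and -0.34, and limma voom to -0.54 and -0.45.

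The labels share replicate numbers between groups. Deviations of same-numbered libraries were at most weakly correlated: 0 of 12 pairs were over 0.1 and the highest was 0.09. The median was 0.038, against -0.012 for the 63 pairs with other numbers. Whether the numbers mark a shared day or batch was not tested. In 7 of 24 comparisons a library was closest to the same number in another group. The replicate block took the rows called from 461 to 0, from 12 to 3 and from 287 to 88. In the same order of contrasts, DESeq2 called 12.1%, 0.238% and 10.2% of rows and limma voom 5.35%, 0.0672% and 4.29%, where edgeR called 2.82%, 0.0733% and 1.75%. A count of 0 allowed up to 0.0896 to 0.184 CPM, depending on the library.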
